A study of Homo sapiens with 3 samples.

Results

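The aminoacyl-tRNA synthetases of UM-UC-3 bladder cancer cells were followed on 3 expression arrays after knockdown of the long noncoding RNA DANCR. The set was named by gene and not by measured values, though with earlier results of these data known. It held 19 cytosolic and 16 mitochondrial enzymes, 35 in all. Probe sets annotated to a single gene were taken under the current or the older symbol (AARS1 and AARS, for example). Such probe sets existed for 32 members, 17 cytosolic and 15 mitochondrial, among 19775 genes on the array that had one. MARS1, QARS1 and TARS2 had probe sets that were annotated to a microRNA gene as well, and they are given no value here.

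UM-UC-3 is an established human bladder cancer cell line. Cultures were transfected with DANCR siRNA1, DANCR siRNA2 or a negative control siRNA, each at 75 nM with a lipid reagent, and RNA was taken 48 h later. Each group had 1 array, so all 3 arrays share the line and the transfection, and nothing in the labels names a clone or a second culture. The differences below are therefore sizes on these arrays, with no replicate error, no p-value and no replicate check. The number of arrays limits the precision. RNA was pooled over all cells of a culture, so a change in the share of cells and a change in RNA per cell cannot be told apart. The sense strands of the siRNAs, as the labels give them, are shown because the siRNA is what the labels vary between the groups, with the overhang in capitals.
DANCR siRNA1: gcguacuaacuuguagcaaTT
DANCR siRNA2: gagcuagagcagugacaauTT
Control siRNA: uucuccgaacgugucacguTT

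Each aminoacyl-tRNA synthetase joins an amino acid to the tRNAs that carry it, using ATP, and so sets the meaning of the genetic code. Human cells hold separate nuclear-encoded enzymes for cytosolic and for mitochondrial translation, and GARS1 and KARS1 serve both compartments from a single gene. The enzymes fall into 2 unrelated catalytic folds, class I and class II. In amino acid shortage the kinase GCN2 senses uncharged tRNA and the transcription factor ATF4 is translated, which induces many cytosolic synthetase genes through a short response element near their start.

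The response element core TGATGNAA was looked for in RefSeq promoter windows (GRCh38.p14), which run from 250 bases before to 50 after a start site, on both strands. Windows were at hand for 30 members, and 8 of them held the core in at least 1 window (26.7%), against 4.46% of all 27305 genes with a window. LARS1, VARS1, YARS1, AARS2 and VARS2 had no window. The sites are shown because they lie in the promoters of synthetases, 7 of them with ratios given further on, with the core or its reverse complement in capitals and each on its gene's strand.
AARS1, chr16:70289675-70289704, minus strand, first capital 187 bases before the start site: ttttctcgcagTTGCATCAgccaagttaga
CARS1, chr11:3057407-3057436, minus strand, 2 bases before: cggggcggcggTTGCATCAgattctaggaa
GARS1, chr7:30594834-30594863, plus strand, 33 bases before: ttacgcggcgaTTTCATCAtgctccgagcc
IARS1, chr9:92293692-92293721, minus strand, 13 bases before: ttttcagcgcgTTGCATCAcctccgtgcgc
MARS1, chr12:57488053-57488082, plus strand, 4 bases before: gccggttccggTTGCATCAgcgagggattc
NARS1, chr18:57621804-57621833, minus strand, at base 15 after the start site: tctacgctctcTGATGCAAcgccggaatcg
TARS1, chr5:33440956-33440985, plus strand, at base 3 after: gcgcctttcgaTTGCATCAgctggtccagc
YARS2, chr12:32756076-32756105, minus strand, 197 bases before: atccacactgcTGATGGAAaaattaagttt

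Of these 8 genes, 7 encode cytosolic enzymes. In 6 of the 8, all cytosolic, the core had the form TGATGCAA or its reverse complement, a form counted after the sites were seen and present in 1.08% of all genes with a window. CARS1, GARS1 and TARS1 each had a further window without a match. A match of letters is a description of the window and not evidence of binding, and no match says only that these letters are not in it.

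The knockdown itself was seen on the array. DANCR had an intensity of 116 with siRNA1 and 126 with siRNA2, against 671 with the control siRNA. Between 48.9% and 49.3% of the 54675 probe sets on an array lay above the floor, set at the median of all values (an intensity of 10.53). Among cell markers, KRT18 was at 711, 1022 and 1315 and VIM at 4412, 4861 and 5322 with siRNA1, siRNA2 and control siRNA. The other epithelial markers measured were dim, KRT7 at 20.0, 23.9 and 28.2 and KRT8 at 21.5, 21.2 and 21.5. The other mesenchymal markers did not share the order of VIM, with CDH2 at 61.9, 94.5 and 82.2 and FN1 at 30.2, 43.9 and 27.0. Of 7 urothelial markers only GATA3 was measured, at 20.2, 35.2 and 20.2, and of 4 leukocyte markers 2 were measured, with a summed intensity of 33.7 to 38.8 over the 3 arrays. The epithelial list summed to 752, 1067 and 1364 over its 3 measured members, of 6, and EPCAM, CDH1 and KRT19 were not above the floor. The 3'/5' signal ratio of ACTB was 11.8, 14.4 and 11.9, highest on the siRNA2 array. That of GAPDH was 1.29, 1.35 and 1.25, also highest there. The part of these signal ratios in the results was not tested.

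Values below the floor were raised to it, and each gene was read from its brightest probe set, by the mean of the 3 arrays. A gene counted as measured when any array exceeded the floor, which held for 12447 genes. All 32 synthetases lay above the floor on every array by their brightest probe set, so no ratio from those sets is a bound. Across the whole family, 67 single-gene probe sets were present and 56 were measured. Brightest sets ranged in the control array from 121 to 2207 for cytosolic and from 23.9 to 276.6 for mitochondrial enzymes. Probe sets differ in response, so these ranges do not order the genes by transcript number.

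**Figure D1:**
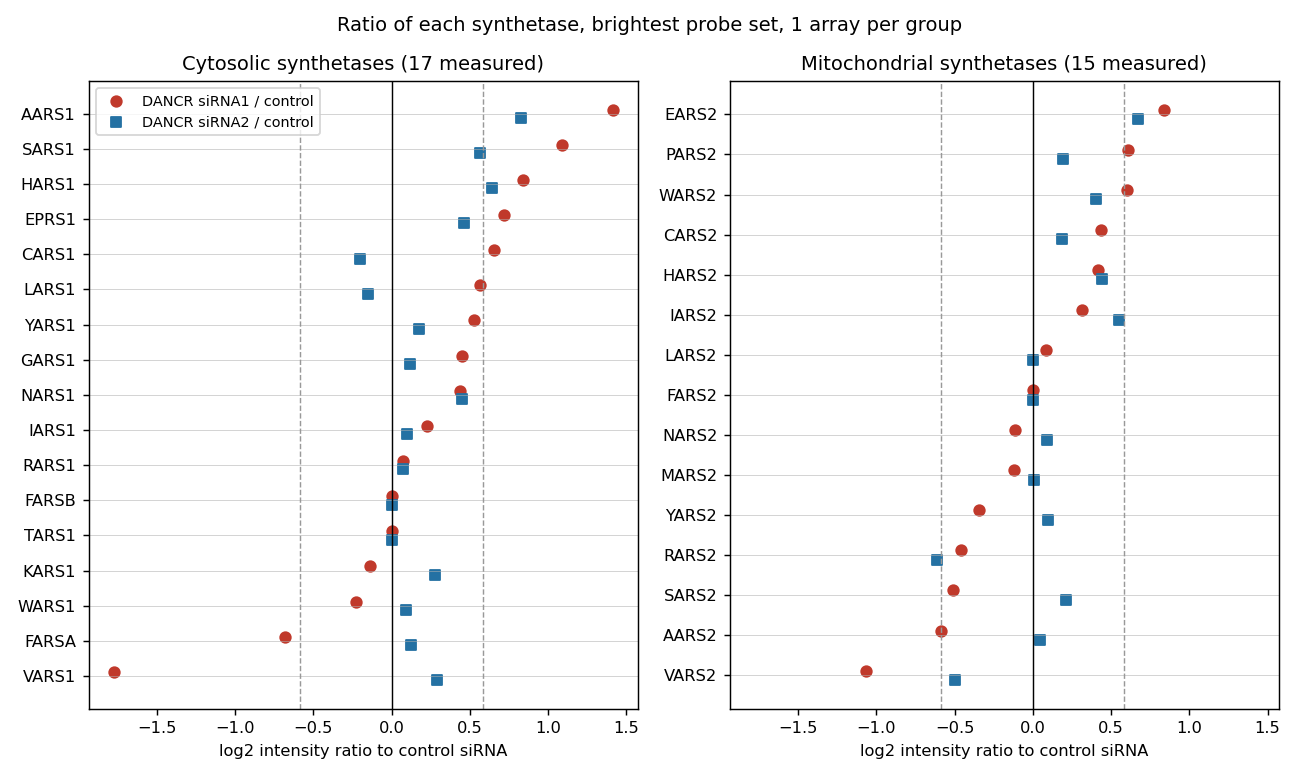
Log2 intensity ratio to the control siRNA array (x axis) of each measured synthetase by its brightest probe set, with DANCR siRNA1 as red circles and DANCR siRNA2 as blue squares. Dashed lines mark 1.5-fold; the siRNA1 ratios run from -1.78 (VARS1) to 1.41 (AARS1), and the siRNA2 ratios from -0.61 (RARS2) to 0.83 (AARS1).

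With DANCR siRNA1 the synthetases spread to both sides of the control. Alanyl-, seryl-, histidyl-, glutamyl-prolyl- and cysteinyl-tRNA synthetase mRNAs were at least 1.5-fold higher than in the control, while VARS1 and FARSA were at least 1.5-fold lower. In all, 8 of 32 measured synthetases (25%) were at least 1.5-fold higher, where 7.13% of all measured genes were, and 4 of 32 (12.5%) were lower, where 6.03% were. Among the 11888 genes above the floor on every array, a background chosen after the values were seen, those shares were 7.22% and 6.08%. At 2-fold, 2 synthetases were higher and 2 were lower, beside 1.86% and 1.75% of all genes.

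AARS1, which charges alanine and also edits mischarged tRNA, had intensities of 322 with siRNA1, 215 with siRNA2 and 121 with the control siRNA. Its ratios were 2.66-fold and 1.77-fold, on the only probe set of the gene. Thus both knockdown arrays were above the control and siRNA1 was the highest of the 3. SARS1, the seryl enzyme, stood at 629 with siRNA1, 437 with siRNA2 and 296 with the control siRNA, ratios of 2.12-fold and 1.48-fold. Its further probe set was at 81.0, 76.9 and 76.9, with log2 ratios of 0.08 and 0.00. The SARS1 difference was thus carried by only 1 of 2 probe sets, and by the median of both its log2 ratio with siRNA1 was 0.58, just short of 1.5-fold.

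HARS1, the histidyl enzyme, was at 825 with siRNA1, 718 with siRNA2 and 460.1 with the control siRNA. EPRS1, a fused protein that charges both glutamate and proline, was at 644.5, 539.7 and 391.8. Both genes kept the order siRNA1, siRNA2, control, with log2 ratios to the control of 0.84 and 0.64 for HARS1 and of 0.72 and 0.46 for EPRS1. The other EPRS1 probe sets gave 0.53 and 0.30, and 0.72 and 0.48, so that all 3 sets were higher with both siRNAs.

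CARS1, the cysteinyl enzyme, was at 1099.5 with siRNA1, 607 with siRNA2 and 698 with the control siRNA. LARS1, the leucyl enzyme, which also reports leucine supply to mTORC1, was at 728, 444 and 492. In both genes the siRNA1 array stood above the others and the siRNA2 array was slightly below the control. The next brightest CARS1 set gave log2 ratios of 0.79 with siRNA1 and -0.23 with siRNA2, while the dimmest, close to the floor, gave -0.13 and 0.13. With siRNA1 that dimmest set was below the floor, at 10.1, so its -0.13 is set by the floor. The further LARS1 sets gave 0.16 to 0.69 with siRNA1 and -0.13 to 0.08 with siRNA2. By the median over probe sets CARS1 was at 0.47 with siRNA1.

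VARS1, the valyl enzyme, was the lowest ratio of the family, at 43.1 with siRNA1, 181 with siRNA2 and 148 with the control siRNA. On this probe set siRNA1 was 3.43-fold below the control and siRNA2 was 1.22-fold above it. Its other probe set, at 31.0, 33.8 and 34.9, had log2 ratios of -0.17 and -0.04, so the size of the VARS1 difference rests on 1 probe set. FARSA, the catalytic alpha subunit of the phenylalanyl enzyme, was at 104 with siRNA1, 182 with siRNA2 and 167 with the control siRNA, and both its probe sets were lower with siRNA1 (-0.68 and -0.75). Its partner subunit FARSB read 361 on every array. Identical values on all 3 arrays also stood for TARS1 (819.9) and FARS2 (158). The further FARS2 set was at 104 with siRNA1, 108 with siRNA2 and 85.6 with the control siRNA, log2 ratios of 0.28 and 0.34. The further FARSB set was above the floor only with siRNA2 (13.3), so its ratios of 0.00 and 0.34 are set by the floor. Such equal values were found for 32.1% of all probe sets (relative tolerance 1e-09), so a ratio of exactly 0 here is not a measure of constancy.

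**Figure D2:**
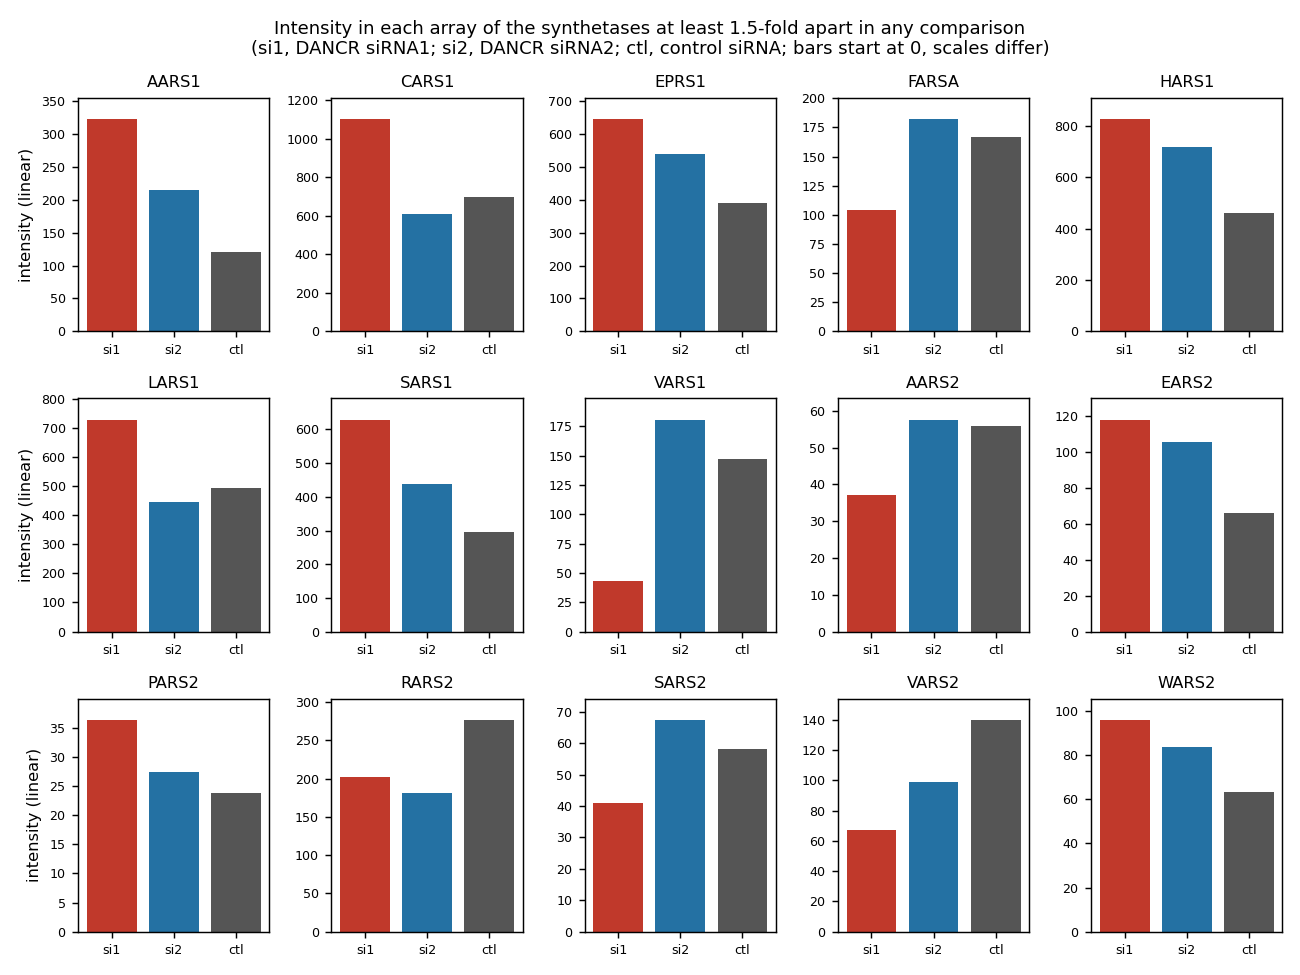
Linear intensity on each array of the 15 synthetases at least 1.5-fold apart in any of the 3 comparisons, by the brightest probe set, with 1 bar per array in the order DANCR siRNA1 (si1), DANCR siRNA2 (si2) and control siRNA (ctl). Scales differ between panels; AARS1, SARS1, HARS1, EPRS1 and EARS2 step down from si1 to ctl, and VARS1 has its lowest bar at si1 (43.1).

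The other cytosolic enzymes lay inside 1.5-fold with both siRNAs. YARS1, the tyrosyl enzyme, GARS1 (glycine), NARS1 (asparagine) and IARS1 (isoleucine) had log2 ratios of 0.53, 0.45, 0.44 and 0.22 with siRNA1 and of 0.18, 0.12, 0.45 and 0.10 with siRNA2. The further YARS1 probe set, at 28.2 to 29.2, gave -0.05 with both. RARS1, the arginyl enzyme, gave 0.07 with both. KARS1, the lysyl enzyme, was at 2003 with siRNA1, 2679 with siRNA2 and 2207 with the control siRNA, and WARS1, the interferon-inducible tryptophanyl enzyme, at 146, 182 and 170.5. Their further sets gave log2 ratios of -0.30 and 0.17 for KARS1 and of -0.10 and 0.38 for WARS1. These last genes were a little below the control with siRNA1 and a little above it with siRNA2.

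Among mitochondrial enzymes, EARS2, PARS2 and WARS2 were at least 1.5-fold higher with siRNA1, and VARS2 and AARS2 were at least 1.5-fold lower. EARS2, which charges mitochondrial glutamate and glutamine tRNAs with glutamate, was at 118 with siRNA1, 105 with siRNA2 and 66.0 with the control siRNA. Its second set gave log2 ratios of 0.89 and 0.70 beside 0.84 and 0.67, and the dimmest measured set gave 0.32 and 0.20. All measured EARS2 sets were thus higher with both siRNAs. PARS2, the prolyl enzyme, was dim, at 36.3, 27.3 and 23.9, and with the floor at the 70th percentile its log2 ratio with siRNA1 was 0.29 in place of 0.61. With median-centred arrays it was 0.57, short of 1.5-fold.

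WARS2, the tryptophanyl enzyme, was at 95.9 with siRNA1, 83.5 with siRNA2 and 63.2 with the control siRNA, and its further set gave 0.57 and 0.28. The WARS2 ratio with siRNA1 was 0.60, and it was short of 1.5-fold with median-centred arrays (0.57), with quantile normalisation (0.56) and without _s_at and _x_at sets (0.57). VARS2, the valyl enzyme, was at 66.8, 98.9 and 139.8, which is 2.09-fold and 1.41-fold below the control on its only probe set. Both valyl enzymes were therefore lower with siRNA1, whereas with siRNA2 only VARS2 was. AARS2, the alanyl enzyme, was at 37.2 with siRNA1, 57.6 with siRNA2 and 55.9 with the control siRNA, and SARS2, the seryl enzyme, at 40.8, 67.4 and 58.2. In both, siRNA1 stood below the other arrays, the opposite side from their cytosolic namesakes. AARS2 lay at the 1.5-fold line, with log2 ratios of -0.59 on its brightest set and -0.40 on its further set, and SARS2 just inside it, at -0.51.

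RARS2, the arginyl enzyme, was lower with both siRNAs, at 201 with siRNA1, 181 with siRNA2 and 277 with the control siRNA. Its second measured set, at 58.8, 46.2 and 73.4, had the same order, with log2 ratios of -0.32 and -0.67 beside -0.46 and -0.61. IARS2, the isoleucyl enzyme, was at 284, 335 and 229, higher with both, and MARS2, the methionyl enzyme, was dim and close to level, at 29.2, 31.9 and 31.7. Of the remaining mitochondrial enzymes, CARS2, HARS2, LARS2, FARS2, NARS2 and YARS2 had log2 ratios of 0.43, 0.41, 0.08, 0.00, -0.11 and -0.35 with siRNA1. With siRNA2 they had 0.19, 0.44, 0.00, 0.00, 0.09 and 0.09. The further CARS2 sets, at 12.4 to 27.2, gave -0.05 and -0.12 with siRNA1, and that of LARS2 gave 0.00 with siRNA1 and -0.14 with siRNA2.

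With DANCR siRNA2 the family spread less. AARS1, HARS1 and EARS2 were at least 1.5-fold higher, 3 of 32 (9.38%) beside 8.74% of all measured genes, and RARS2 was lower, 1 of 32 (3.12%) beside 4.28%. Both shares were near those of all genes. None was 2-fold from the control in either direction, where 2.15% of all genes were higher and 1.21% lower. AARS1, HARS1 and EARS2 were also the 3 members at least 1.5-fold higher with both siRNAs, and none was 1.5-fold lower with both, where 3.49% and 1.29% of all genes were. Both ratios are taken to the same control array, so these counts are not independent. With siRNA2, HARS1 had a log2 ratio of 0.57, short of 1.5-fold, when the arrays were centred on their medians.

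Set against each other, the siRNA arrays differed by 1.5-fold or more in 7 synthetases. CARS1 (a log2 ratio of 0.86), LARS1 (0.72) and AARS1 (0.59, at the line) were higher with siRNA1 than with siRNA2, 3 of 32 beside 5.21% of all genes. VARS1 (4.20-fold), FARSA (1.75-fold), SARS2 (1.65-fold) and AARS2 (1.55-fold) were lower with siRNA1, 4 of 32 beside 8.56%. At 2-fold VARS1 alone was apart, lower with siRNA1, beside 1.51% of genes higher and 2.4% lower. By the median over probe sets the count was 4 in place of 7. The DANCR intensities of the siRNA arrays differed by a log2 ratio of -0.11.

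The cytosolic enzymes were compared with the mitochondrial ones as groups. With siRNA1 the cytosolic median log2 ratio was 0.44 over 17 members, 11 above 0 and 4 below, and the mitochondrial median was 0.00 over 15 members, 7 above and 7 below, with a median of 0.00 over all measured genes. This mitochondrial median is the value of FARS2, whose brightest set read the same on all 3 arrays and whose further set gave 0.28. The difference of 0.44 depended on the probe sets taken. It was 0.29 with the median over each gene's sets, 0.24 by means in place of medians, and 0.07 when sets with the suffixes _s_at and _x_at were left out, which removed 6 cytosolic members. With siRNA2 the medians were 0.12 and 0.09, a difference of 0.03. Above 0 were 13 cytosolic and 12 mitochondrial members, with 2 of each below. Of all 12447 measured genes, 5597 were above 0 and 4507 below with siRNA2, and 5257 and 4917 with siRNA1. With median-centred arrays the siRNA2 medians were 0.05 and 0.02. The spread within a compartment was larger than the gap between compartments: with siRNA1 the quartiles of the cytosolic ratios ran from 0.00 to 0.66 and those of the mitochondrial ratios from -0.40 to 0.42.

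**Figure D3:**
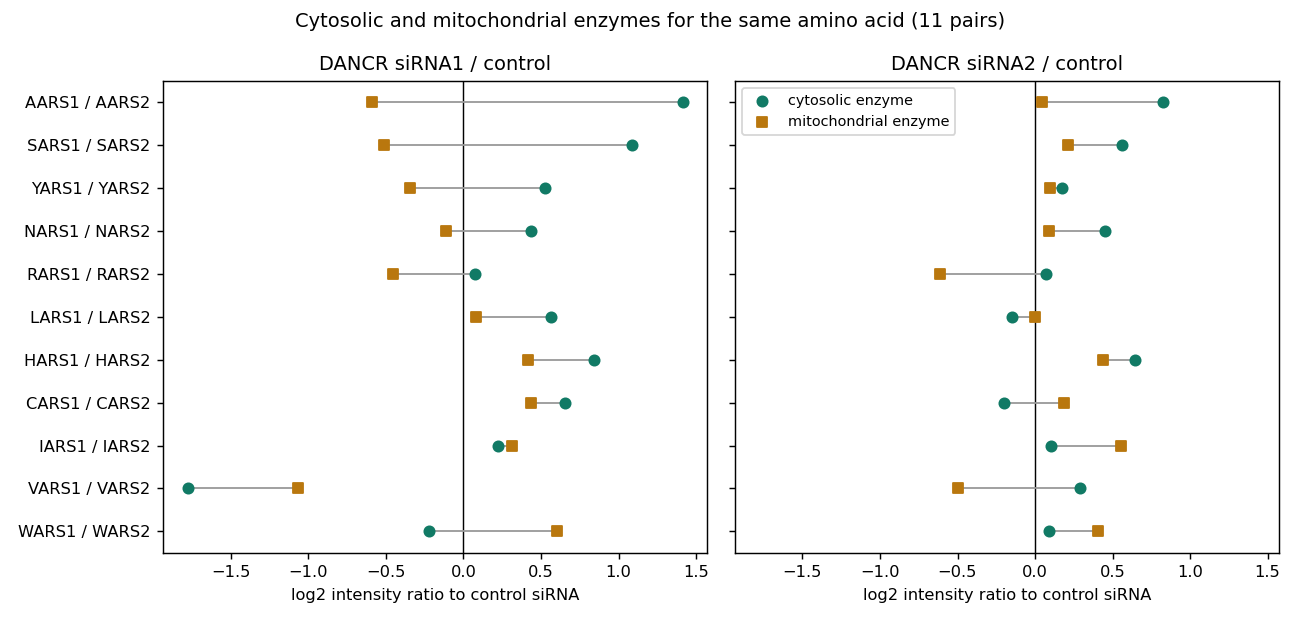
Log2 intensity ratio to the control siRNA array (x axis) of the cytosolic (green circle) and mitochondrial (brown square) enzyme for the same amino acid, in 11 pairs with both measured, for DANCR siRNA1 (left) and DANCR siRNA2 (right). With siRNA1 the cytosolic enzyme is the higher in 8 pairs, and the longest line joins AARS1 (1.41) to AARS2 (-0.59).

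Pairs of enzymes for the same amino acid showed where the compartments parted. The alanyl and seryl pairs were the widest with siRNA1, with cytosolic minus mitochondrial differences of 2.001 and 1.599 on the log2 scale, and with siRNA2 they were 0.78 and 0.35. The tryptophanyl pair ran the other way, at -0.83 and -0.31, as did the isoleucyl pair, at -0.09 and -0.45. The cysteinyl and leucyl pairs did so with siRNA2 only, at -0.39 and -0.15, against 0.22 and 0.49 with siRNA1. The valyl pair was at -0.71 with siRNA1 and 0.79 with siRNA2, and the VARS1 ratio behind it rests on the probe set named above. Of 11 pairs, the cytosolic enzyme had the higher ratio in 8 with siRNA1 and in 7 with siRNA2. The median difference was 0.49 and 0.20. The phenylalanyl enzymes were left out of these counts because the cytosolic enzyme has separate subunits, FARSA and FARSB. FARSA minus FARS2 was -0.68 with siRNA1, the cytosolic side lower, and 0.12 with siRNA2. EPRS1, which does both jobs in the cytosol, stood beside EARS2 and PARS2, its mitochondrial counterparts, at 0.72 against 0.84 and 0.61 with siRNA1.

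HARS1 and HARS2, the histidyl pair, are neighbours that start back to back. HARS2 was at 283 with siRNA1, 288 with siRNA2 and 212 with the control siRNA, and it was higher than the control with both siRNAs, as was HARS1. Their RefSeq windows share 184 bases (GRCh38.p14, chr5:140691321-140691504, plus strand, which is the HARS2 strand). The shared stretch is shown because it lies between 2 members whose ratios were on the same side of the control, with the 84 bases between the start sites in capitals. Neither window held the core TGATGNAA.
HARS1 and HARS2: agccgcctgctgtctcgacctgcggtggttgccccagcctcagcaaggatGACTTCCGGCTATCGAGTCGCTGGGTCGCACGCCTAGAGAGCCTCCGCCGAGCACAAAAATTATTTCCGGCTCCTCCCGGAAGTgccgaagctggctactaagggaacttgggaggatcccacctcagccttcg

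The cytosolic enzymes were also divided by what is known of them. The 10 measured members of a list of known ATF4 targets (AARS1, CARS1, EPRS1, GARS1, IARS1, NARS1, SARS1, TARS1, WARS1 and YARS1) had a median log2 ratio of 0.49 with siRNA1, with 8 above 0 and 4 at least 1.5-fold higher. Of those 4, CARS1 (0.47) and SARS1 (0.58) were short of 1.5-fold by the median over probe sets. The other 7 cytosolic members had a median of 0.00, with 1 higher and 2 lower at 1.5-fold. That median is the value of FARSB, which read the same on all 3 arrays. The background over every measured gene was 7.13% on the higher side and 6.03% on the lower. With siRNA2 the medians were 0.15 and 0.12. Of the members with a response element core shown above, AARS1, CARS1, GARS1, NARS1 and IARS1 had ratios of 1.41, 0.66, 0.45, 0.44 and 0.22 with siRNA1, TARS1 read 0.00 and YARS2 had -0.35. SARS1, HARS1 and EPRS1, all above 0.7, had no core in their windows.

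Enzymes bound in the multi-tRNA synthetase complex, a cytosolic assembly built on scaffold proteins, were measured for 5 of 7 listed members. With siRNA1 their median was 0.22, against 0.44 for the 12 cytosolic members outside it, and with siRNA2 the medians were 0.10 and 0.15. By means these values were 0.29 and 0.23 with siRNA1, the reverse order, and 0.15 and 0.26 with siRNA2. The scaffold protein AIMP1 had log2 ratios of 0.34 and 0.24 on its brightest set. The next set, at 139.5 with siRNA1, 148 with siRNA2 and 91.7 with the control siRNA, gave 0.61 and 0.69, past 1.5-fold with both, and the dimmest gave 0.46 and -0.51. By catalytic fold, with EPRS1 left out because it holds both, the siRNA1 median was 0.00 over 15 class II members and 0.15 over 16 class I members, and the siRNA2 medians were 0.19 and 0.09. The means were 0.21 and 0.02 with siRNA1 and 0.27 and 0.07 with siRNA2, so with siRNA1 the order of the folds turned between median and mean. Among cytosolic members alone the class II and class I medians were 0.44 and 0.22 with siRNA1 and 0.28 and 0.09 with siRNA2.

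Most genes on a list of the wider amino acid response had higher mRNA signals with siRNA1 than with the control siRNA. The activity of the response itself was not tested. Of 15 measured genes of that list outside the synthetases, 9 were at least 1.5-fold higher and 1 lower with siRNA1, and 3 were higher with siRNA2, with medians of 0.87 and 0.22. Over all measured genes the shares were 7.13% higher and 6.03% lower with siRNA1, and 8.74% higher with siRNA2. ATF4 itself had 0.27 and 0.05. The largest ratios of the list with siRNA1, each given with its siRNA2 ratio, were those of DDIT3 (1.94 and 0.91), the cystine transporter SLC7A11 (1.93 and -0.44), the glutathione-degrading CHAC1 (1.88 and 0.24) and TRIB3 (1.51 and 0.22). With siRNA1 the further SLC7A11 sets gave 2.25 and 0.25, and that of TRIB3 gave 0.30. The 0.25 and 0.30 are set by the floor, since the control array lay below it. DDIT3 and CHAC1 had 1 probe set each. SHMT2, the mitochondrial serine hydroxymethyltransferase, was lower, at -1.49 and -0.21, and its further sets gave -1.52 and -1.59 with siRNA1.

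Mitochondria make glutaminyl-tRNA from the glutamyl-tRNA that EARS2 produces, by an amidotransferase of QRSL1, GATB and GATC. While EARS2 was higher with both siRNAs, GATC was at 79.2 with siRNA1, 105 with siRNA2 and 177 with the control siRNA, lower with both. Its second set gave -0.66 and -0.14 beside -1.16 and -0.75. QRSL1, the catalytic subunit, was at 141, 61.6 and 128, so that only siRNA2 stood apart, 2.07-fold below the control. Of its 3 further sets, 2 gave -0.78 and -1.20 with siRNA2, and the dimmest -0.03. GATB had ratios of 0.18 and 0.02, and the formyltransferase MTFMT, which acts on initiator methionyl-tRNA after MARS2, 0.27 and 0.23.

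**Figure D4:**
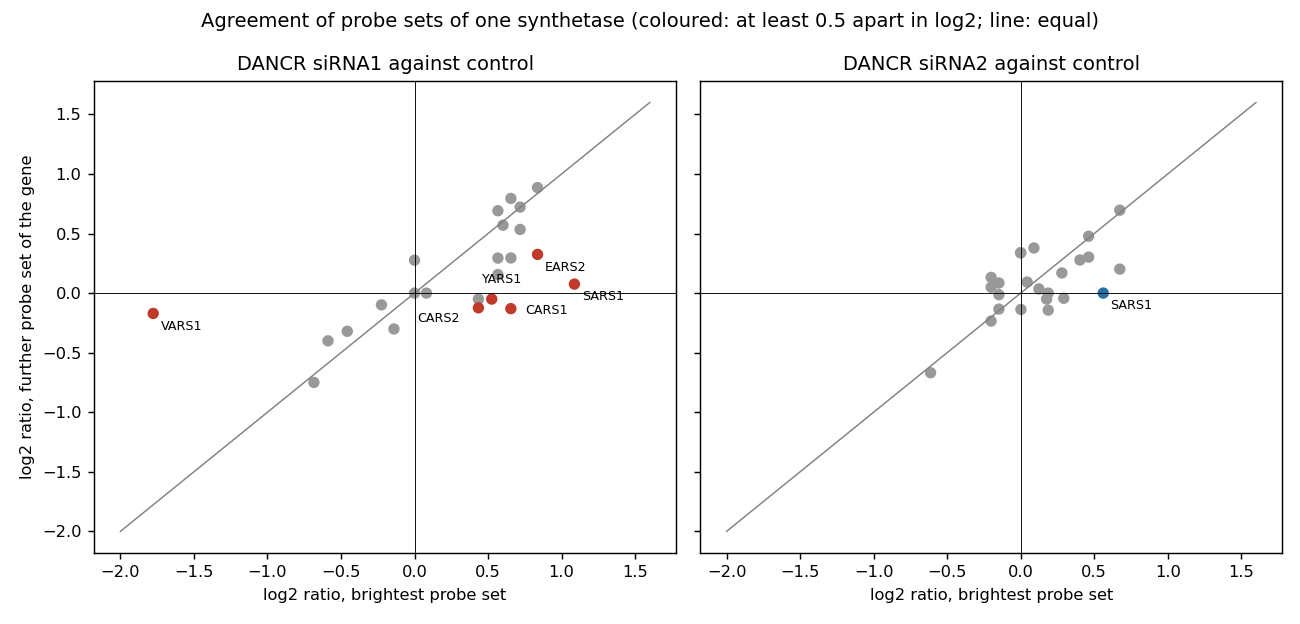
Log2 ratio to the control siRNA array of each further measured probe set of a synthetase (y axis) against that of its brightest set (x axis), for DANCR siRNA1 (left) and DANCR siRNA2 (right), with 24 further sets of 17 genes. Coloured points lie at least 0.5 from the brightest set; there are 6 with siRNA1, VARS1 and SARS1 farthest, and 1 with siRNA2.

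Agreement between probe sets of a gene gave a view of how far a single ratio can be read. Of 24 further measured sets in 17 genes, 6 differed from the brightest set by at least 0.5 on the log2 scale with siRNA1, in CARS1, SARS1, VARS1, YARS1, CARS2 and EARS2. With siRNA2 only SARS1 had such a set. Among members past 1.5-fold in a comparison, AARS1, HARS1, PARS2, VARS2 and SARS2 had no further measured set. Their values rest on 1 probe set each. The same held for GARS1, IARS1, NARS1, RARS1, TARS1, HARS2, IARS2, MARS2, NARS2 and YARS2. EPRS1, FARSA and RARS2 had further sets that all lay within 0.5 of the brightest.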

How the data were processed

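Biotin-labelled cRNA was hybridised to Affymetrix arrays per the labels' protocols. The authors deposited 1 linear intensity per probe set and array, already on a common scale by a method not given in the sources used here. The submitters' processing notes name GCOS 1.4. Of 54675 probe sets, 41091 named 1 gene, 1801 several and 11721 none in the platform annotation, and 62 were array controls. Symbols were updated through Entrez identifiers to RefSeq (GRCh38.p14). Ratios were log2 of floored intensities (50th percentile), and calls were made at 1.5-fold and 2-fold over all 12447 measured genes, with no test. The rules were checked on simulated data without tied values, with changes planted only in genes well above the floor. That check does not cover dim members or tied probe sets. Values in all arrays are given for members at least 1.5-fold apart in any comparison, and for the highest and lowest remaining member of each compartment. Members, lists and rules were chosen with earlier results of these data known. Protein sequences were not used here. Alternatives covered scaling, floor, probe set choice, threshold and mean against median. Python 3.11.15, numpy 2.4.6, pandas 2.3.3 and matplotlib 3.10.9 were used.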

Additional observations from a re-analysis of the deposited data

How the results depend on the processing

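With 1 array per group, no replicate could be left out and no spread is known; group medians count as moved at a shift of 0.1 or more (log2). The cytosolic median with siRNA1 (0.44) was 0.24 by the median over probe sets, 0.074 without _s_at and _x_at sets and 0.25 by the mean. The gap to the mitochondrial median (0.44) became 0.29, 0.074 and 0.24 in the same order. With siRNA2 the mean of the cytosolic members was 0.23 against a median of 0.12. For siRNA1 against siRNA2 the cytosolic median (0.12) was 0.00 without _s_at and _x_at sets and 0.019 by the mean, the gap (0.15) was 0.027 without those sets, and the mitochondrial median of -0.03 turned to 0.017 with median-centred arrays. The counts of 12, 4 and 7 synthetases at 1.5-fold were 4, 0 and 1 at 2-fold, and 7 became 4 by the median over probe sets. No p-value was computed, so the count of 0 has no unadjusted counterpart. The other 87 group results under the alternatives shifted by less than 0.1, or by less than 1.5 times for counts. Of the single-gene ratios under the alternatives, 291 shifted by less than 0.1, 15 by more, and none past 1.5-fold changed sign. Many of the 291 could not shift by more, so their number is no measure of stability. A lower floor or no floor cannot change brightest sets above the floor on every array, in single-gene or group results. Median-centring shifts all these ratios in a comparison by the same amount, here below 0.1. With the median over probe sets, which can move only genes with several sets, 11 ratios moved and 34 did not. Causes were not tested. No paired analysis was possible because each group has 1 array.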

Other observations

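Of 8 listed genes of tRNA maturation and export, 7 were measured. By its brightest set none was 1.5-fold from the control with either siRNA, with medians of -0.04 and 0.00. Over all measured genes 7.13% were higher and 6.03% lower with siRNA1, and 8.74% and 4.28% with siRNA2, so a count of 0 among so few genes is near those shares. XPOT, the tRNA export receptor, had log2 ratios of 0.08 and 0.08 on its brightest set and of -0.26 and -0.35 on a further one. ELAC2, which trims the 3' end of tRNA precursors, was at 122 with siRNA1, 186 with siRNA2 and 164 with the control siRNA, 1.53-fold lower with siRNA1 than with siRNA2. Its dim further set gave -0.32 and -0.21 against the control. TRNT1, which adds the CCA end, had -0.12 and -0.08, and its dimmest set, at 14.5, 25.5 and 14.5, gave 0.00 and 0.81, past 1.5-fold with siRNA2. RPP30 had -0.12 and -0.09 on its brightest set. Its next set, at 65.9, 42.9 and 42.9, gave 0.62 and 0.00, past 1.5-fold with siRNA1, and the dimmest gave 0.11 and -0.49.

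Of 8 listed genes of translation elongation, 6 were measured and none was 1.5-fold from the control by its brightest set. This count is near the shares of all genes just given. GFM1, a mitochondrial factor that moves the tRNA on the ribosome, had ratios of 0.37 and 0.32 on that set. Its next set, at 223 with siRNA1, 224 with siRNA2 and 141 with the control siRNA, gave 0.67 with both, past 1.5-fold, and the others gave 0.15 and 0.49, and 0.18 with both. TUFM, the mitochondrial counterpart of EEF1A1, was at 604 with siRNA1, 1165 with siRNA2 and 796 with the control siRNA, so that the siRNA arrays lay on opposite sides of the control and were 1.93-fold apart. Its further set gave -0.25 and 0.04. EEF1A1 had log2 ratios of 0.05 and -0.04, and among its further sets the ratios ran from 0.09 to 0.47 and from -0.40 to 0.19. DTD2, a deacylase that removes wrong amino acids from tRNA, was at 169.8, 308 and 216, also on opposite sides of the control, 1.82-fold lower with siRNA1 than with siRNA2. Its dimmer set gave 0.28 and 0.55. DTD1, a related deacylase, had ratios of -0.14 and -0.12, and its further set gave -0.94 with both siRNAs, where both siRNA arrays were at or below the floor and the control was at 20.2, so that this ratio is set by the floor.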
